A study of Homo sapiens with 3 samples.

Results

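Genes at loci associated with the risk of Alzheimer disease were examined in neurons. The cells came from KOLF2.1J, a widely shared and well characterised human line of induced pluripotent cells. The list held 39 genes, given by name in a rule with no threshold on a measured value but drawn up with earlier results of these data known, of 20037 protein-coding genes on the main chromosomes. The labels give the line used as KOLF2.1J-hNGN2, after NGN2, a transcription factor that turns progenitors into neurons, and the time of collection as day 14 of differentiation. All libraries come from this 1 line. ATAC-seq, in which the Tn5 transposase inserts adapters into accessible DNA, was run on 3 biological replicates. These form 1 group, with no untreated or undifferentiated group beside it, and the authors deposited 1 combined list of accessible regions. Values for single replicates were not analysed here, so no spread between them can be given and no test was made. Each gene is therefore set beside all protein-coding genes of the same list.

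Many genes at these loci act in microglia, the phagocytes of the brain, in which the transcription factor PU.1, encoded by SPI1, opens myeloid enhancers and promoters. Others act in most cell types, in endocytosis, lipid transport and the cleavage of membrane proteins such as the amyloid precursor protein. A promoter rich in CpG dinucleotides is accessible in most cell types, whereas CpG-poor promoters tend to open only where a cell type's own factors bind them. The 39 genes were divided into 13 known for expression in microglia or other immune cells, called microglial members here, and 26 others. This division was made from general knowledge and not from these data, but with earlier results of these data known. Some genes, such as RIN3, APOE and CASS4, could be placed otherwise.

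Marker genes were looked at first. A gene end is called accessible here when the strongest summit of a region lay within 1 kb of either outer end of the gene, which held for 66.7% of all protein-coding genes. It held for 10 of 12 neuronal marker genes, among them MAP2, SNAP25 and DCX but not TUBB3 or RBFOX3, and for 4 of 18 microglial markers outside the list. AIF1, CSF1R, P2RY12, TMEM119, TYROBP and the C1q genes were among the 14 microglial markers without an accessible end, and the 4 with one were CD14, CX3CR1, IRF8 and SALL1. Of 6 astrocyte markers 4 had one, and of 6 pluripotency markers only LIN28A did. In pooled libraries a region open weakly in all cells and one open strongly in a few cells cannot be told apart.

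Promoter sequences are shown for genes at either extreme. The RefSeq promoter table (GRCh38.p14), which gives the 250 bases before and 50 after a gene's start, held 29 of the 39 genes. The members absent from it were SPI1, ABI3, SCIMP, CLU, PTK2B, CASS4, TSPOAP1, APH1B, IL34 and ADAMTS1. Below are first the non-microglial members of that table with the strongest accessible outer ends. After them come 4 well known microglial members without an accessible end. All sequences run 5′ to 3′ on the gene's own strand with every CpG in capitals. They were picked by whether the end was accessible, so they are examples and not the range. The windows are chr10:11611601-11611900 (minus strand) for USP6NL, chr2:9555781-9556080 (minus) for ADAM17 and chr16:78099404-78099703 (plus) for WWOX. For PICALM they are chr11:86069811-86070110 and, for a second listed start, chr11:86069035-86069334 (both minus). The microglial windows are chr6:41163067-41163366 (minus) for TREM2, chr19:51224830-51225129 (plus) for CD33, chr2:233060092-233060391 (plus) for INPP5D and chr11:60184617-60184916 (minus) for MS4A6A.
USP6NL: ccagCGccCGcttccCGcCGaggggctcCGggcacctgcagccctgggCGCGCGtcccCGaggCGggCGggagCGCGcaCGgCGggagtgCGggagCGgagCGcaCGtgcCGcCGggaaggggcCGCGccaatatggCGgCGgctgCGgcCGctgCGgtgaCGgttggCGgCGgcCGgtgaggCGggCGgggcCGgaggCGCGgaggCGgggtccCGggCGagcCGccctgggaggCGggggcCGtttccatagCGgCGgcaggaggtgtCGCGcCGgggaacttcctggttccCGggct
ADAM17: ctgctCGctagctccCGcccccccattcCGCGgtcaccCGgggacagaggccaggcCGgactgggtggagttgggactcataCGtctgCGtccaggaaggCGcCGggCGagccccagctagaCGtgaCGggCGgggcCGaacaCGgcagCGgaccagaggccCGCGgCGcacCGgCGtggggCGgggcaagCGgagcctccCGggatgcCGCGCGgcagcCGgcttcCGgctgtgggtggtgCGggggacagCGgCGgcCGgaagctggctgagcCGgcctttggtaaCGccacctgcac
WWOX: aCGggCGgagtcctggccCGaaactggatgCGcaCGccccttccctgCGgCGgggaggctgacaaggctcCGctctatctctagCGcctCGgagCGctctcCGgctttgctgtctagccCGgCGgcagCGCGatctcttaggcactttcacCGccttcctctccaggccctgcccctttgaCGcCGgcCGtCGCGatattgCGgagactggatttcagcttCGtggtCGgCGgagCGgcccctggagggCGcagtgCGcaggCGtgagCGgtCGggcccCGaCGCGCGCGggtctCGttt
PICALM, most upstream start: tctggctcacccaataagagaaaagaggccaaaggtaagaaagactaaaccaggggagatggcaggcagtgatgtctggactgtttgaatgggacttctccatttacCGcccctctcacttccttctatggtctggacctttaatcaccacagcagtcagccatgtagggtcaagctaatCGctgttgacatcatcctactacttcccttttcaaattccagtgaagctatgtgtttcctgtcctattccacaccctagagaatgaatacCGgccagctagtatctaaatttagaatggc
PICALM, downstream start: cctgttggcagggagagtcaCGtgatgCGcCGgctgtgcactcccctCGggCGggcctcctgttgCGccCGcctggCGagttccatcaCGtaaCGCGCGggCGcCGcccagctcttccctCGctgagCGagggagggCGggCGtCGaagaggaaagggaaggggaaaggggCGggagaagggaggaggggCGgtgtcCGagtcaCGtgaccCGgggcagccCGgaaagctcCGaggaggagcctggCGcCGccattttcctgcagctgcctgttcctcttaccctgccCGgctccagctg
TREM2: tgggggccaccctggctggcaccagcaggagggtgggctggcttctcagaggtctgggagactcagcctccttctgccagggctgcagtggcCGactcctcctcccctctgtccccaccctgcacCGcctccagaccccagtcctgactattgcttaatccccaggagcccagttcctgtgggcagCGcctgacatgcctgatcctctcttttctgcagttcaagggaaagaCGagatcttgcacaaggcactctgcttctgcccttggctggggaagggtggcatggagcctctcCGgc
CD33: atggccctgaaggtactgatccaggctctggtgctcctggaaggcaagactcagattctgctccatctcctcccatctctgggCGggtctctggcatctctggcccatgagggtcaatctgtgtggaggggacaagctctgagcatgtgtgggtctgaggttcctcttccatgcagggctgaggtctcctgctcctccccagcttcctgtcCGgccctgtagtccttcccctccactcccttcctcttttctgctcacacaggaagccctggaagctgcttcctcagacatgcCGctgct
INPP5D: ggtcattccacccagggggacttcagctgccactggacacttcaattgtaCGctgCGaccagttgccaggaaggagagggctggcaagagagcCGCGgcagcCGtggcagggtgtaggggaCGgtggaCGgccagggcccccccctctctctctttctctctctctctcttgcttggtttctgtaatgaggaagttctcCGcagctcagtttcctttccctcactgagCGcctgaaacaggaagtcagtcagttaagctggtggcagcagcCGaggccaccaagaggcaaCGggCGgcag
MS4A6A: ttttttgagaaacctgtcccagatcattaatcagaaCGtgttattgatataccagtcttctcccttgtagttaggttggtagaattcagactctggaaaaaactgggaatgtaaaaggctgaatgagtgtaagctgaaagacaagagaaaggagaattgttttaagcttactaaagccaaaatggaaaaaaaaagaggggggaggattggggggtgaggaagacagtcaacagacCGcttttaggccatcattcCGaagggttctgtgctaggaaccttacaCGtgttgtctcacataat

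The 300 bases held 49 CpGs in USP6NL, 36 in ADAM17 and 38 in WWOX, and all of each window lay inside an accessible region. They held 5 CpGs in TREM2, 3 in CD33, 12 in INPP5D and 4 in MS4A6A, and no base of these windows lay in a region. Other members ran the opposite way: the most upstream starts of CELF1 and ECHDC3 had 44 and 33 CpGs and no summit within 1 kb, while HLA-DRB1 and PLCG2 had 1 and 8 and a summit. PICALM, a clathrin adaptor gene, had 3 CpGs at its most upstream start and 29 at the start downstream of it. The summit of its region lay 707 bp from the first and 69 bp from the second.

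Across the 39 genes an accessible end was found for 26, which is 66.7%, the same share as over all protein-coding genes (66.7%). The share divided by group. It was 21 of 26 (80.8%) among the non-microglial members and 5 of 13 (38.5%) among the microglial ones, a difference of -42.3 percentage points. Genes of 1 pooled list are not replicates, so this difference carries no p-value. The microglial members were also shorter, with a median length of 25.9 kb against 65.4 kb, and poorer in CpG (a median ratio of observed to expected CpG of 0.311 against 0.868). The part of either in the difference was not tested. Among 26 further genes of Alzheimer risk loci, such as APP, GRN and SORT1, 19 (73.1%) had an accessible end.

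**Figure D1:**
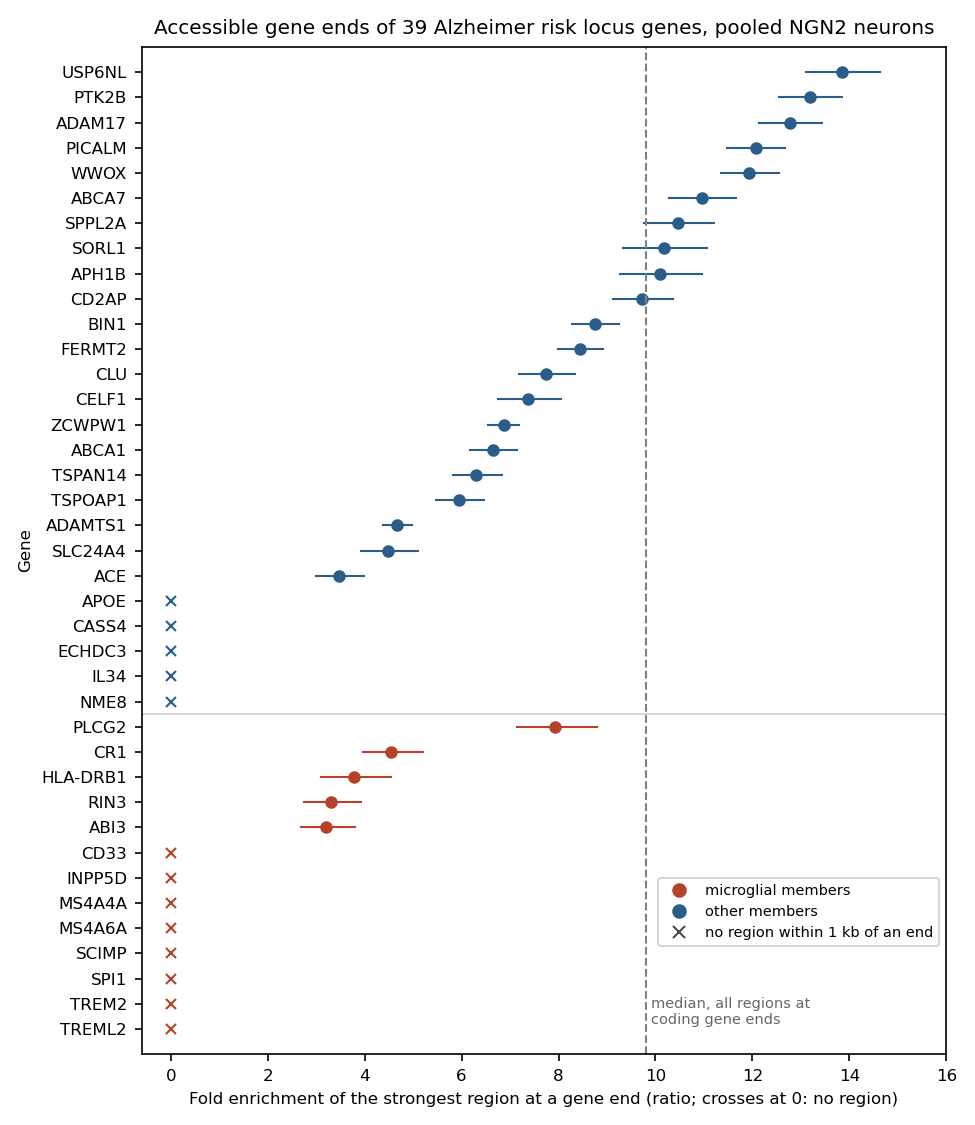
Fold enrichment (ratio to the background, linear axis) of the strongest region within 1 kb of an end of each gene, in the pooled list of 3 samples. Lines are 95% Poisson intervals of the tag count, crosses at 0 mark genes with no region, and the dashed line is the median of 9.80 over all regions at ends of coding genes; the 5 microglial members with a region lie between 3.21 and 7.94, all to its left.

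The strength of each region is given as fold enrichment, the authors' ratio of tags at the summit to the background, and as the number of tags recovered at the summit. Many member regions, among them the end of HLA-DRB1, shared the same background of 29.2 tags, the lowest among member regions. For these the fold enrichment follows from the tag count alone, so the 2 are not separate measures. Among the 12675 regions at ends of protein-coding genes the median fold enrichment was 9.80 and the median tag count 842. The strongest end regions of the 21 non-microglial members with one had a median fold enrichment of 8.76, from 3.47 to 13.8, and a median of 931 tags, from 201 to 1752. Those of the 5 microglial members had a median of 3.77, from 3.21 to 7.94, and 131 tags, from 113 to 366. The groups overlapped in both measures. Of these 21 non-microglial members 9 exceeded the median fold enrichment of all regions at coding gene ends, and of the 5 microglial members 0. That median counts every such region, whereas each member is represented by its strongest.

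The 6 members that act in endocytosis and membrane traffic all had an accessible end, beside 66.7% of all protein-coding genes. The same share is the background for each role group below, and groups this small were not tested. USP6NL, whose product switches off the endosomal GTPase Rab5, had the highest fold enrichment of all members at 13.8 with 1282 tags (exact Poisson 95% interval 1213 to 1354), at chromosome 10 from 11610835 to 11612249. PICALM was the second of these 6, at 12.1 with 1591 tags (interval 1514 to 1671), from 86068070 to 86070021 on chromosome 11. SORL1, a sorting receptor that binds the amyloid precursor protein, reached 10.2 with 553 tags, its summit 28 bp upstream of the start. CD2AP, a scaffold between membrane and actin, reached 9.73 with 943 tags, 68 bp upstream. BIN1, a membrane-bending adaptor, had a fold enrichment of 8.76 but 1253 tags (interval 1185 to 1324), more than SORL1 and CD2AP, over a local background of 142.2 tags against 53.5 and 96.0. The order of these genes thus depends on the measure. RIN3, an activator of Rab5 counted here as microglial, was the weakest of the 6 at 3.30 with 128 tags (interval 107 to 152).

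In the lipid and apolipoprotein group 3 of 4 genes had an accessible end. ABCA7 and ABCA1 encode transporters that load lipids onto apolipoproteins. ABCA7 had a region at each end, at 11.0 with 994 tags beside its start and at 3.47 with 144 tags at its far end, and both lay within 1 kb of an end of another coding gene, CNN2 and ARHGAP45. ABCA1 reached 6.65 with 753 tags in a wide region of 2435 bp with 5 summits. CLU, which encodes the secreted chaperone clusterin, was accessible at both ends on chromosome 8, at 7.75 with 697 tags at the upper end and 5.01 with 236 tags at the lower. APOE, the main lipid carrier of the brain, had no region at its ends or inside. Its nearest summit lay 2001 bp upstream of the start, inside chromosome 19 from 44903144 to 44904399, at 5.53 with 268 tags and within 1 kb of an end of TOMM40. A region at the end of APOC1, 5.77 kb beyond APOE, was stronger, at 12.5 with 634 tags.

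All 5 proteases and secretase parts had an accessible end. ADAM17, a sheddase of membrane proteins, reached 12.8 with 1530 tags (interval 1454 to 1609), 29 bp upstream of its start. SPPL2A, an intramembrane protease, reached 10.5 with 811 tags, and APH1B, a subunit of gamma-secretase, 10.1 with 555 tags. The intervals of fold enrichment from counting error of SPPL2A, APH1B and SORL1 overlapped (9.76 to 11.2, 9.27 to 11.0 and 9.34 to 11.1), so these 3 cannot be ordered. ADAMTS1, a secreted protease of the extracellular matrix, had 931 tags but a fold enrichment of 4.67, over the highest background but one among the member ends, 198.7 tags. Its region was the widest, 2715 bp with 8 summits. ACE, which converts angiotensin I, was the weakest of the group at 3.47 with 201 tags.

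Among the adhesion and kinase genes PTK2B and FERMT2 had an accessible end and CASS4 had none. PTK2B, which encodes the tyrosine kinase PYK2, reached 13.2 with 1558 tags (interval 1482 to 1637), with the summit 965 bp inside the gene and within 1 kb of an end of TRIM35. FERMT2, the integrin activator kindlin-2, reached 8.44 with 1258 tags. Around CASS4, a scaffold of focal adhesions, the 2 regions within 50 kb were strong, at 17.2 with 1369 tags and at 16.2 with 2090 tags, and both lay at ends of other genes, RTF2 in the first case and AURKA and CSTF1 in the second.

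ZCWPW1, a reader of histone methylation known from meiosis, had the most tags of any member end, 1752 (interval 1671 to 1836), but a fold enrichment of 6.87 over 254.3 background tags. Its summit lay 628 bp upstream of its start and within 1 kb of an end of MEPCE, so the region cannot be assigned to either gene. WWOX, an oxidoreductase gene spanning 1113 kb, reached 11.9 with 1578 tags. TSPAN14, a tetraspanin, reached 6.31 with 609 tags. TSPOAP1, which encodes a binding partner of presynaptic proteins, reached 5.95 with 577 tags. SLC24A4, a sodium, calcium and potassium exchanger, was weak at both ends, at 4.48 with 230 tags and 3.62 with 117. ECHDC3, a gene of the enoyl-CoA hydratase family, NME8, a gene of motile cilia, and IL34, which encodes a ligand of the microglial receptor CSF1R, had no accessible end.

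CELF1, a regulator of splicing, illustrates a start inside the outer bounds. The region counted at its lower end, 959 bp inside the gene at 7.38 with 516 tags, lay 98.6 kb from the most upstream start. A stronger region at chromosome 11 from 47552192 to 47553730, at 14.7 with 1408 tags, lay 12.3 kb inside the gene and 125 bp from another of its 5 listed starts. A weaker region, at 5.55 with 238 tags, lay 242 bp and 631 bp from 2 further listed starts. The start beside the stronger region had 39 CpGs in its 300 bases and the most upstream one 44, with no summit within 1 kb of the latter. With the most upstream start of each gene, 19 of 29 members had a summit within 1 kb, against 68.4% of the 15843 coding genes in the table. With any listed start it was 20 of 29, for which the matching share over all coding genes is not given here.

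The 7 immune surface receptors had 2 accessible ends. CR1, a complement receptor, reached 4.55 with 211 tags (interval 183 to 241) in 1 region, 308 bp inside its start. HLA-DRB1, a class II antigen-presenting chain, reached 3.77 with 113 tags (interval 93.1 to 136), the fewest of any member, over 29.2 background tags. Reads at HLA-DRB1 and at CR1 can be shared with near-identical neighbouring genes, so both values are uncertain. TREM2, the lipid-sensing receptor of microglia, TREML2, its neighbour on chromosome 6, and CD33, an inhibitory receptor for sialic acid, had no region at an end, inside or within 50 kb. No such region was found for 3 of 39 members, and for 4.98% of all protein-coding genes. The nearest summit lay 85.8 kb from TREM2, 77.95 kb from TREML2 and 71.99 kb from CD33. MS4A6A and MS4A4A, of a family of membrane proteins of myeloid cells, had no accessible end, and their nearest summits lay 9.17 kb outside MS4A6A and 4.76 kb inside MS4A4A.

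Among the immune signalling genes ABI3 and PLCG2 had an accessible end, and SPI1, INPP5D and SCIMP had none. PLCG2, a phospholipase downstream of immune receptors, had the strongest microglial end at 7.94 with 366 tags (interval 329 to 405). Its summit lay 860 bp upstream of the start, and its region, from 81737840 to 81738631 on chromosome 16, did not contain the start. ABI3, a regulator of actin, was the weakest of all members at 3.21 with 131 tags, in a region also within 1 kb of an end of PHOSPHO1, with a score of 586 from a range of 540 to 1000. The ABI3 summit lay 379 bp beyond the upper end. With ABI3 absent from the promoter table, this end was not assigned as its start or its far end. SPI1 held 1 region, 4.47 kb from an end, at 3.49 with 151 tags. The nearest summit to the start of INPP5D, a lipid phosphatase, lay 79.1 kb into the gene, although a region at 7.82 with 486 tags lay 1.94 kb beyond its far end. SCIMP, an adaptor of antigen-presenting cells, had its nearest summit 14.9 kb away.

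Several calls lay close to the 1 kb limit. Just inside it were PTK2B at 965 bp, CELF1 at 959, SLC24A4 at 944 and PLCG2 at 860. Just outside were NME8, whose nearest summit lay 1038 bp from its far end, INPP5D at 1943 bp and APOE at 2001 bp. Of the 29 regions at member ends, 14 also lay within 1 kb of an end of another annotated gene and 5 of another coding gene. The matching shares over all coding gene ends are not given here. Their widths ran from 465 to 2715 bp with a median of 1329 bp, against 1283 bp at all coding gene ends.

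**Figure D2:**
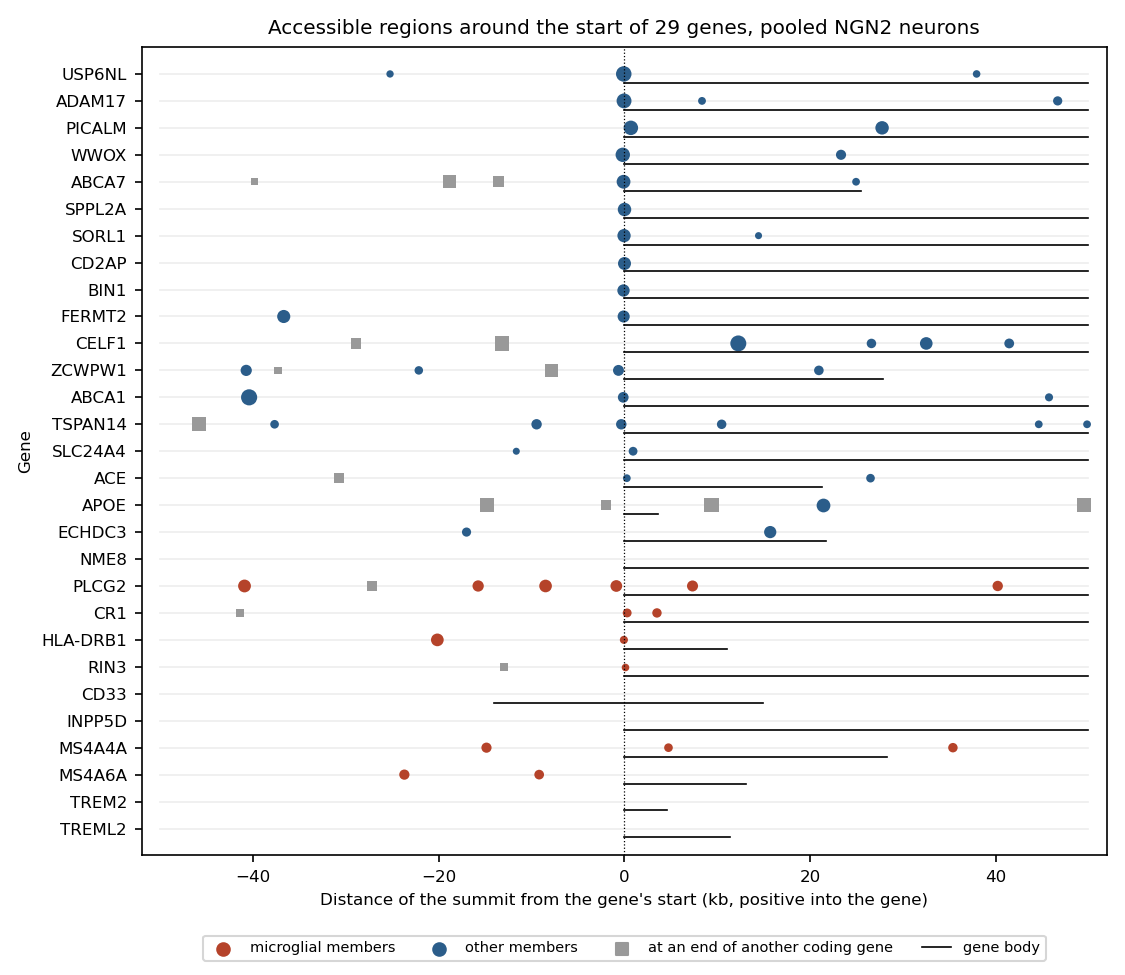
Distance of each region summit from the most upstream listed start (kb, positive into the gene) for the 29 genes in the promoter table. Point area is proportional to fold enrichment, grey squares lie at an end of another coding gene and black lines are gene bodies; 15 of 19 non-microglial and 4 of 10 microglial members have a point within 1 kb of 0, and TREM2, TREML2, CD33, INPP5D and NME8 have none within 50 kb.

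CpG content differed between the groups in the same direction as accessibility. The ratio of observed to expected CpG in the 300 bases had a median of 0.868 in 19 non-microglial members and 0.311 in 10 microglial ones, against 0.761 over all coding genes. Among coding genes with a ratio of at least 0.75, 93% had a summit within 1 kb of the start. None of the microglial members was in this class, and 13 of 15 non-microglial members in it had a summit, the exceptions being CELF1 and ECHDC3. Between 0.4 and 0.75 the share over all coding genes was 70.5%, and CR1, RIN3 and SLC24A4 had a summit while INPP5D and NME8 had none. Below 0.4 it was 16.1%. In that class HLA-DRB1 and PLCG2 of 7 microglial members and PICALM of 2 others had a summit, and CD33, MS4A4A, MS4A6A, TREM2, TREML2 and APOE had none. These classes follow the most upstream start, and CELF1 and PICALM would be placed otherwise by another listed start. That start had a ratio of 0.899 in CELF1, 125 bp from a summit, and 0.805 in PICALM, 69 bp from its summit. CELF1 starts with ratios of 0.0992 and 0.130 also had a summit within 1 kb. The lower classes held 2 non-microglial members each and the highest no microglial one, so the groups cannot be set against each other within a class. RIN3 and ACE had ratios of 0.741 and 0.799 but fold enrichments of only 3.30 and 3.47.

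**Figure D3:**
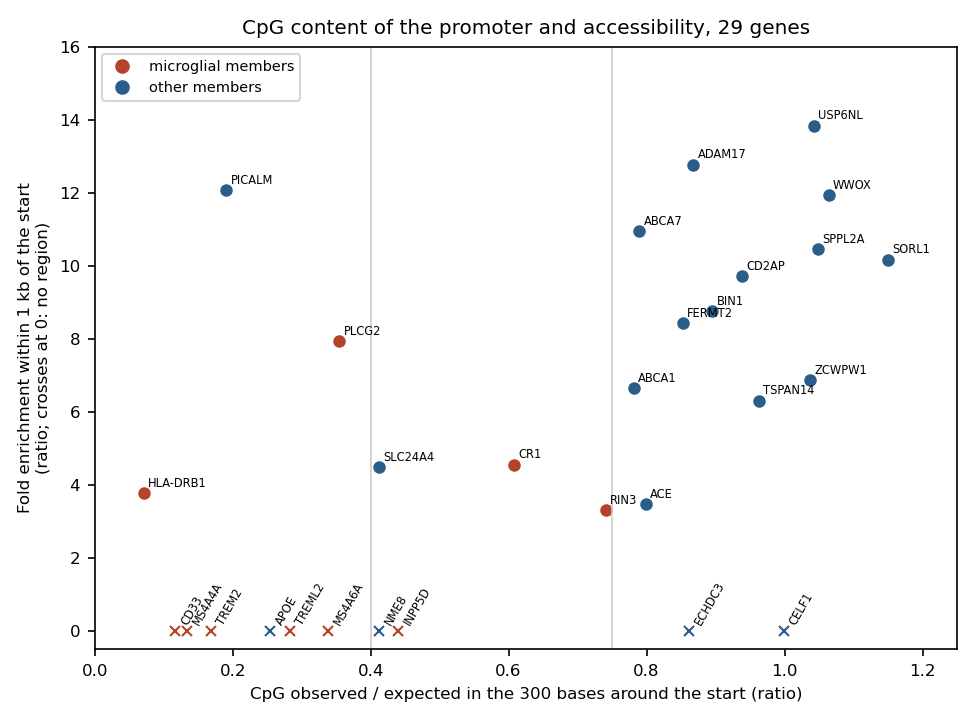
Ratio of observed to expected CpG in the 300 bases around the most upstream start against the fold enrichment of the strongest region within 1 kb of it, for 29 genes. Crosses at 0 have no region and grey lines mark the ratios 0.4 and 0.75; all 10 microglial members lie to the left of 0.75 and 15 of 19 others to its right.

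Short words bound by known factors were counted in the same windows on both strands, with no word contained in another. GGGCGG, the core of SP and KLF sites, occurred in 17 of 19 non-microglial and 5 of 10 microglial promoters, against 58.3% of all coding promoters. GAGGAA, part of the site of PU.1, occurred in 7 of 10 microglial and 9 of 19 other promoters, against 27.6%, and TREM2 was among the promoters without it. CAGATG, an E-box of the kind bound by NGN2, occurred in HLA-DRB1, MS4A4A, PLCG2 and NME8, and in 11.7% of all coding promoters. CCGGAAG, an ETS word, was found in ADAM17 and SPPL2A and in 14.2% of all, and TATAAA in MS4A4A, ABCA1 and ACE and in 9.75% of all. The palindromic core of the site of NRF1 was in 0 of the 29 and in 1.77% of all. A match is a description of these letters and not of binding.

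Regions inside the genes, with a summit over 1 kb from both ends, were found in 24 of 39 members, against 40.9% of all protein-coding genes. The members were longer, with a median of 51.8 kb against 24.1 kb, and per 100 kb of gene they held 2.15 regions against 2.06. By group, 6 of 13 microglial and 18 of 26 other members held such a region, with medians of 0 and 1 per gene. The density per 100 kb was 2.00 in the microglial and 2.20 in the other members, and WWOX alone gave 21 of the 66 regions in the others. In all there were 83 regions inside members, 17 of them in microglial ones.

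WWOX held 21, against a median of 17 in 91 coding genes of similar length (within 25%). The strongest in WWOX, at 10.5 with 809 tags, lay 88.2 kb from its far end. PTK2B held 7 (similar genes, median 3), with the strongest at 9.99 and 395 tags. SORL1, USP6NL and PLCG2 held 5 each, against medians of 3, 3 and 4. The strongest were at 9.56 with 288 tags in SORL1, 7.32 with 226 tags in USP6NL and 7.02 with 267 tags in PLCG2, the last 7.35 kb from its start. RIN3, CR1, CELF1, ABCA1 and TSPAN14 held 4 each, and TSPAN14 lay at percentile 94.6 of genes of similar length. The strongest inside RIN3, at 9.52 with 665 tags, exceeded the region at its start. The strongest were at 9.26 with 406 tags in ABCA1, 8.31 with 250 in CR1 and 5.20 with 544 in TSPAN14. PICALM held 1 region, at 10.4 with 319 tags, 27.8 kb from its start. CD2AP, at 149.5 kb, and FERMT2, at 93.8 kb, held 0, where genes of similar length had medians of 3 and 1. In CLU, of 17.8 kb, a region between the ends, at 9.17 with 915 tags, was stronger than both ends. ECHDC3, without an accessible end, held 1 region at 8.65 with 492 tags, and IL34 held 3, the strongest at 8.21 with 322 tags. In the remaining members with a region inside, the strongest ran from 3.18 in TSPOAP1 to 5.31 in ZCWPW1. These positions are given without exon or intron, since exon positions were not used here.

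**Figure D4:**
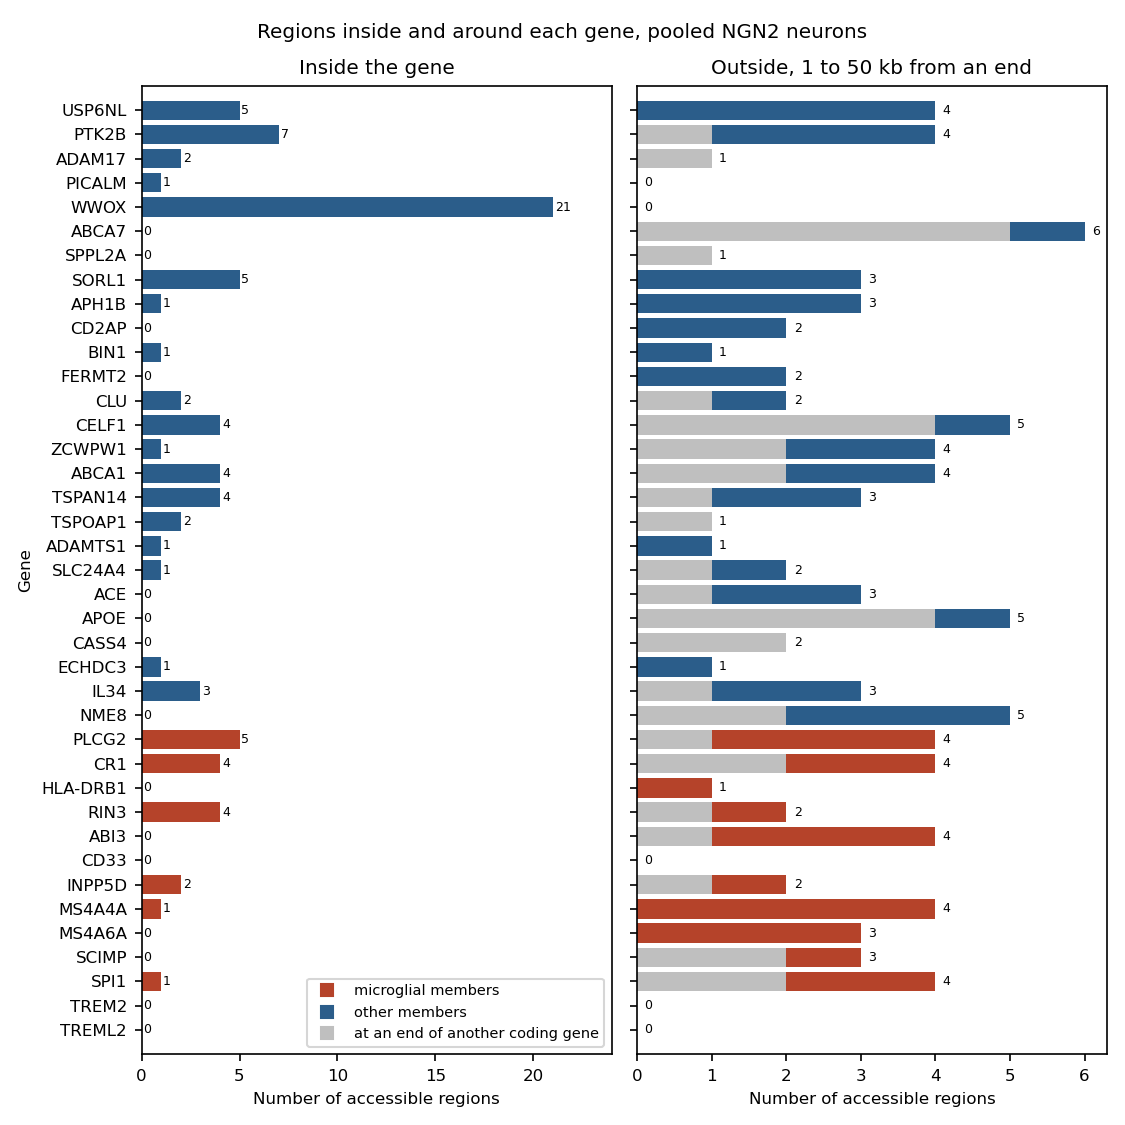
Number of accessible regions inside each gene, over 1 kb from both ends (left), and outside it between 1 and 50 kb from an end (right); grey marks those at an end of another coding gene. WWOX holds 21 inside, ABCA7 has the most outside with 6, of which 5 are at ends of other genes, and TREM2, TREML2 and CD33 have 0 in both.

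Outside the genes, between 1 and 50 kb from an end, regions were found for 34 of 39 members, against 90.2% of all protein-coding genes. The median was 3 per member, as over all coding genes, with 3 for microglial and 2.5 for other members. The order of the groups turned with the setting, to 5 and 5.5 within 100 kb and to 4 and 6.5 with every entry counted. Of 97 distinct regions 38 lay at an end of another coding gene. The same share around all coding genes is not given here, so this count is not a trait of these loci. Over all positions 4 regions were noted for 2 neighbouring members each, SPI1 with CELF1 or RIN3 with SLC24A4. PICALM and WWOX had 0, besides TREM2, TREML2 and CD33. ABCA7 had the most, 6, and 5 of these were at ends of other coding genes, the strongest at POLR2E at 12.9 with 807 tags. APOE, CELF1 and NME8 had 5 each, of which 4, 4 and 2 were at ends of other coding genes. The strongest region outside was at an end of another coding gene also for SCIMP (ZNF594, 15.9), INPP5D (ATG16L1, 15.4), SPPL2A (TRPM7, 13.9) and TSPOAP1 (SUPT4H1, 13.6). The same held for CR1 (CR1L, 13.2), ABI3 (PHOSPHO1, 12.8), CELF1 (PSMC3, 11.98), PTK2B (EPHX2, 11.7), TSPAN14 (PRXL2A, 10.0) and ZCWPW1 (PPP1R35, 9.95). For SPI1 it was at an end of SLC39A13-AS1, at 12.5 with 1976 tags.

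Some regions outside the genes lay at no annotated gene end. The strongest of these was 40.4 kb upstream of ABCA1, on chromosome 9 from 104968039 to 104969208, at 15.0 with 1351 tags, which put it at percentile 99.3 of all regions away from coding gene ends and above the region at the start of ABCA1 itself. Next came a region 35.96 kb outside PTK2B on chromosome 8, at 10.6 with 398 tags. A region 15.2 kb outside APH1B, on chromosome 15 from 63323625 to 63324793, reached 10.3 with 685 tags, and one 36.7 kb upstream of FERMT2 reached 9.93 with 403 tags. HLA-DRB1 had 1 region, 20.1 kb upstream, at 9.30 with 280 tags. PLCG2 had 3 such regions upstream of its start, at distances of 8.48, 15.7 and 40.9 kb, with fold enrichments of 9.22, 7.36 and 9.47. Of these, the nearest and the farthest exceeded the region at the PLCG2 end. MS4A4A had 4 and MS4A6A 2 at no annotated gene end, none above a fold enrichment of 8.90. SORL1 had 3, the strongest 22.4 kb beyond its far end at 8.78 with 733 tags. BIN1 had 1 region within 50 kb, 22.3 kb beyond its far end at 8.85 with 558 tags and near an end of LOC105373604, and none upstream of its start. In the members not yet given, the strongest region outside, whether at a gene end or not, ran from 3.30 for SLC24A4 to 7.24 for IL34. These 2 regions lay at ends of other coding genes, RIN3 and MTSS2.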

How the data were processed

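ATAC-seq libraries of 3 replicates, each from 100000 cells, were deposited by the authors as 1 list of peaks whose name gives it as the optimal set by irreproducible discovery rate, with genome build hg38 per the submitters' processing notes. Aligner, peak caller and filters are not given in the sources used here. Each deposited entry holds its summit, the fold enrichment there (a ratio, not on a log scale) and a −log10 p, and the deposited score is a whole number of unstated scaling. The 145092 entries were merged by their bounds into 65234 regions, each with the values of its entry of highest −log10 p. The summit's tag count was recovered as the whole number whose ratio, with a pseudocount of 1, and Poisson upper tail give the deposited values, and matched every entry to within 0.00079 units of −log10 p (range 58 to 3783 tags). The depth of each replicate is unknown. Tags are not independent molecules, so intervals cover counting error only, with the background taken as fixed. Gene bounds and promoters came from RefSeq tables (GRCh38.p14), and all 39 symbols matched. Where several starts are listed, the most upstream was used. Every member is named, as are the members with most regions inside or outside and, except where a range is given, each member's strongest such region. Members and lists were chosen with earlier results of these data known. Python 3.11.15, numpy 2.4.6, scipy 1.17.1, pandas 2.3.3 and matplotlib 3.10.9 were used. Alternatives covered windows, thresholds, entries and groupings.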

Additional observations from a re-analysis of the deposited data

How the results depend on the processing

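Of 27 recomputed values for 7 results, 20 kept their direction and stayed within the limit set for them, and 7 moved. For counts the limit was a factor of 1.5. For the difference in share between microglial and other members it was the range from -65.67 to -10.3 percentage points. These limits are wide, and a difference of -61.5 still counted as kept. The 20 kept values therefore do not show that the results are stable. Accessible member ends numbered from 19 to 28 over the alternatives, against 26. With only the RefSeq start, 29 members could be scored. The share over all protein-coding genes ran from 56.39% to 71.85%, against 66.7%. The microglial share was below the other share in every alternative run. With a window of 500 bp the other members stood at 61.5%, near the 59.6% of all protein-coding genes, and the microglial ones at 30.8%. The difference of -42.3 percentage points was -30.8 with a window of 500 bp and -61.5 among regions above the median fold enrichment, where PLCG2 was the only microglial member left, 1 of 13. It was -76.5 with only the 5 microglial genes named in the rule, of which 0 had an accessible end. The comparison group was then 34 members, 26 of them with an accessible end. It held the other microglial members, including the 5 with an accessible end. With APOE and CASS4 counted as microglial the difference was -54.2, from 5 of 15 against 21 of 24. ABI3 and HLA-DRB1 were lost at a score of at least 830, and INPP5D and NME8 were gained with 2 kb. The median fold enrichment at member ends was 7.84 with the strongest region of each member and 3.76 over every entry there. The second value picks no strongest one, so these medians differ in kind. When every entry was counted, and not 1 per region, the regions inside members rose from 83 to 170 and those outside from 97 to 231. Those outside numbered 40 within 20 kb, 196 within 100 kb and 59 without the ends of other coding genes. Their medians for microglial and other members, 3 and 2.5, became 5 and 5.5 within 100 kb and 4 and 6.5 with every entry, and those inside, 0 and 1, became 0 and 3 with every entry. Wider windows and more entries admit more regions by construction. Ranked by tags, 7 of the 10 strongest member ends were shared with the ranking by fold enrichment. No paired analysis was possible because there is 1 group only. Leaving out a replicate was not run, since values per replicate were not used here.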
